A study of Mus musculus with 17 samples.

Results

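Apolipoproteins and a lipid transfer protein were followed by their mRNA in the liver and hippocampus of mice fed dietary oils. The probe sets described are those that the platform annotation gives 1 symbol only, where that symbol is Apoa1, Apoa2, Apoa4, Apob, Apoc1, Apoc2, Apoe, Apoh, Apom or Pltp. That rule found 9 of the 10 genes among the 6137 genes that the arrays name by a single symbol, and no probe set carried Apob as its only symbol. The 9 genes had 15 of the 13057 probe sets of both array types, 5 on the array type called chip A here and 10 on the one called chip B.

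Apolipoproteins are the protein coat of lipoprotein particles, which carry triacylglycerol, cholesterol and phospholipid through plasma. The liver secretes most of them. Apoa1 and Apoa2 are the main proteins of high density lipoprotein, Apob is the structural protein of very low density lipoprotein and chylomicrons, and Apoe is the ligand by which remnants are taken up by receptors. Apoa4 travels on chylomicrons and high density lipoprotein and is made chiefly by the intestine, and in mice by the liver too. Apoc2 activates lipoprotein lipase, Apoc1 restrains the uptake and lipolysis of particles, Apom carries sphingosine 1-phosphate, Apoh binds phospholipid surfaces, and Pltp moves phospholipid between particles. In the brain, astrocytes make most of the Apoe.

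The mice were males of the outbred NMRI stock, kept 10 per cage. All diets shared a fat-free purified base with milk fat, palm olein, sunflower oil and soybean oil. The control diet had neither test oil, the fungal oil diet held 1.1% of an oil rich in arachidonate, the fish oil diet held 1.9% of an oil rich in docosahexaenoate, and the fourth diet held both at those levels, each in place of medium chain triacylglycerol oil. Diets were fed to 10 mice each until death on day 57 or 58, and 5 mice per diet were selected. The mice had not been fully fasted. Per the labels the liver gave 2 RNAs of control mice (control 1 and control 2) and 1 RNA for each oil diet, each on both chips. The hippocampus gave 1 RNA per diet, and that of mice fed both oils was analysed on chip B alone, so there were 17 arrays. Nothing in the labels shows the control RNAs to be from separate animals, and the p-values therefore reflect the scatter of these RNAs, some or all of which may be technical. Mice of 1 diet may have shared 1 cage, so that cage and diet cannot be told apart.

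Arrays of both chips had nearly the same trimmed mean intensity, 148.4 to 150.5. Hepatocyte markers, 5 of 10 measured, summed to 39121 to 50555 intensity units in the liver RNAs and to 250 to 394 in the hippocampus RNAs measured on both chips. Neuron markers, 4 of 7 measured, summed to 4239 to 4381 in hippocampus and to 0 to 47 in liver. Both tissue labels thus had their defining markers. The liver labels also name hepatocytes, and of 10 measured macrophage and Kupffer cell markers 1, Marco, was at or below the floor in every liver RNA. The ratio of the Gapdh control probe sets at the 3′ end to those at the 5′ end, a sign of RNA quality, was 1.89 to 3.25 on the liver arrays, highest for fish oil on chip B. In bulk RNA, fewer cells of a type and less RNA per cell cannot be told apart.

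The sequences before the transcription start are shown for Apoa4, Apoc2 and Apom, the bright members that were below both controls by the most in the liver of at least 1 single oil diet. Each is the 250 bases upstream of the start in RefSeq (GRCm38.p6), read 5′ to 3′ on the strand of the gene. Apoa4 is chr9:46240594-46240843 on the plus strand, Apoc2 is chr7:19677942-19678191 on the minus strand, and Apom is chr17:35131802-35132051 on the minus strand. Capitals mark AGGTCA, a half-site read by many nuclear receptors, or CAAAGGTCA, CAAAGTTCA or CAAAGTCCA, 9-base forms of the paired sites read by Hnf4 and Ppar with Rxr, all searched on both strands. CAAAGGTCA holds AGGTCA and would count for both. The last 2 forms were added after the letters had been seen.
Apoa4: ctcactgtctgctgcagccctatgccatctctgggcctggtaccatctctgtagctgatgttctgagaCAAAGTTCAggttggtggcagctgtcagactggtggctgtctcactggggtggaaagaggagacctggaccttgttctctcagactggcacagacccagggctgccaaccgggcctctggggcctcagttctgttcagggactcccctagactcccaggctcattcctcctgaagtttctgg
Apoc2: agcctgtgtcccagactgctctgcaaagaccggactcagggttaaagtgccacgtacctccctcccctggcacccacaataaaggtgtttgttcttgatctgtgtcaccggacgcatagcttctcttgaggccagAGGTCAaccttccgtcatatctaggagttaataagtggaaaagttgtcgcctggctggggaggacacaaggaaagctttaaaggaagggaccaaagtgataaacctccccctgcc
Apom: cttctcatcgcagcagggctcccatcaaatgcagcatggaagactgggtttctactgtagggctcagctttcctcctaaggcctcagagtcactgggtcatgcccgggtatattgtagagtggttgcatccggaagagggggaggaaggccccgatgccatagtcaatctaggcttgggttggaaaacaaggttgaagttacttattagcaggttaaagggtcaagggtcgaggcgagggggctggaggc

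The Apoa4 window held CAAAGTTCA once, with its first base 182 bases before the start, and the Apoc2 window held AGGTCA once, 115 bases before the start. The Apom window held none of the 4. Among the windows of the other genes AGGTCA also stood once in that of Apoh, 215 bases before the start, and once in 1 of the Apoa2 windows, 238 bases before it, and those of Apoa1, Apoe and Pltp held none. Over 32851 windows of the same length in the table, 14.02% held AGGTCA, 0.43% CAAAGGTCA, 0.33% CAAAGTTCA and 0.38% CAAAGTCCA. CAAAGTTCA was added after the letters had been seen, so its share does not measure how unusual the Apoa4 match is. These matches are descriptions of letters and do not show that a factor binds there. The RefSeq order of genes places Apoa1, Apoc3, Apoa4 and Apoa5 next to each other on chromosome 9, and Apoc2, Apoc4, Apoc1 and Apoe on chromosome 7.

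In liver the largest differences with diet were in Apoa4. Intensities of the Apoa4 probe set m13966_f_at were 1987 and 2034 in the control RNAs, 781 with fungal oil, 629 with fish oil and 117 with both oils. The controls lay close together, every oil RNA lay far below them, and the RNA of mice fed both oils was the lowest. The differences from control were -1.36 with fungal oil, -1.68 with fish oil and -4.10 with both oils on the log2 scale (SE 0.10 each), or 2.57-fold, 3.20-fold and 17.2-fold lower. The suffix _f_at marks a probe set whose probes can match several related sequences, so the signal may hold more than 1 transcript.

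Liver diets were tested with limma on log2 intensities, with a floor of 15 units below which values were set to 15, over the 6531 probe sets with a liver mean no lower than the chip's median, and a call needed an adjusted p under 0.05. Of the 15 probe sets of these genes, 12 passed that filter. With fungal oil 0 of the 12 were called, against 0% of all probe sets (0 of 6531, with 597 or 9.14% at an unadjusted p under 0.05). With fish oil 0 were called, also against 0% (720 or 11% unadjusted), and with both oils 0, against 0% (647 or 9.91% unadjusted). For Apoa4 the limma adjusted p was 0.415 with fungal oil, 0.372 with fish oil and 0.114 with both oils. Among the 3267 brightest probe sets, those at or above the 75th percentile, Apoa4 fell in all 3 oil diets, with limma adjusted p of 0.0211, 0.0120 and 0.000428. The calls there were 0.796%, 1.19% and 1.13% of all probe sets, and Apoa4 was the only one of the 10 bright members among them. The SE of Apoa4 there was 0.12, larger than the 0.10 of the main fit. The smaller p thus did not come from a smaller error. They rest on the degrees of freedom that limma estimated for that subset and on fewer tests. Over all alternatives the adjusted p for Apoa4 ran from 0.0211 to 0.477 with fungal oil, from 0.0120 to 0.4095 with fish oil and from 0.000428 to 0.431 with both oils.

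**Figure D1:**
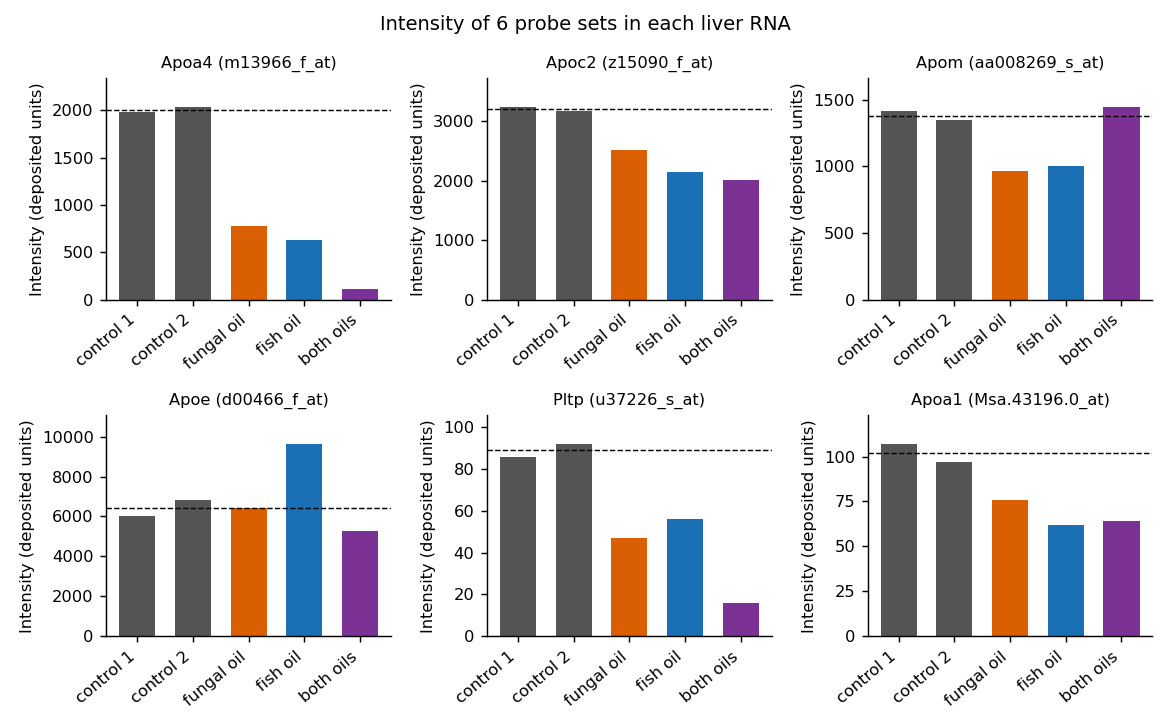
Intensity in deposited units (vertical axes, from 0) of 6 probe sets in each of the 5 liver RNAs (bars), with the mean of both controls as a dashed line. Apoa4 stood at 1987 and 2034 in the controls and at 117 with both oils, and Apom was at 964 and 1003 with the single oils but at 1444 with both.

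A second Apoa4 probe set, on chip B, gave another picture. It read -302 and -82 in the liver controls, -53 with fungal oil, 42 with fish oil and -319 with both oils, so that the fish oil RNA alone was above the floor. It did not pass the filter. With fish oil it was above both controls, where the chip A probe set was below them, and all other liver readings were below the floor. The mean of both probe sets gave -0.68, -0.10 and -2.05 (log2) for fungal oil, fish oil and both oils. In it the chip B difference was 0 with fungal oil and with both oils, because those readings and the controls were set to the floor. With fish oil it was 1.49, which rests on the 1 reading of 42. Gut epithelium also makes Apoa4. Its 7 measured markers of 11 listed summed to 895 and 799 in the control livers and to 816, 619 and 742 with fungal oil, fish oil and both oils, Reg3g was at or below the floor in all 5, and their part in the Apoa4 result was not tested.

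Apoc2, the activator of lipoprotein lipase, was also lower than both controls in each oil RNA. The probe set z15090_f_at read 3233 and 3165 in the controls, 2511 with fungal oil, 2143 with fish oil and 2005 with both oils. The controls differed by little and the 3 oil RNAs did not overlap them. The log2 differences were -0.35, -0.58 and -0.67 (SE 0.11 each), with limma adjusted p of 0.550, 0.388 and 0.402, none of which passed. The other Apoc2 probe set read between -10 and 27 in the 5 livers and did not pass the filter.

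Apom, the carrier of sphingosine 1-phosphate, was below the controls with either oil alone but not with both. The probe set aa008269_s_at read 1415 and 1348 in the controls, 964 with fungal oil, 1003 with fish oil and 1444 with both oils. The single oil RNAs were the lowest and close to each other, and the RNA of both oils was above both controls. The differences were -0.52 and -0.46 with the single oils and 0.06 with both (log2, SE 0.09 each), with limma adjusted p of 0.505, 0.386 and 0.809.

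Apoe, the remnant ligand, was highest in the fish oil liver whichever chip was read. The chip A probe set d00466_f_at read 6040 and 6809 in the controls, 6438 with fungal oil, 9632 with fish oil and 5253 with both oils. The fish oil RNA stood above the rest and the RNA of both oils below both controls, and the fish oil difference was 0.59 (SE 0.10, limma adjusted p = 0.382). Its chip B counterpart read 10404 for control 1 and 9734 for control 2, 10703 after fungal oil, 12074 after fish oil and 10493 after both. The latter's fish oil difference was 0.26 (SE 0.14), and with both oils the probe sets differed in sign, with -0.29 for chip A and 0.06 for chip B. Quantile normalization lowered the fish oil differences to 0.29 and 0.11. The brightest probe sets as a whole were higher in the fish oil liver. Among the brightest 1% of each chip, leaving out these genes, the median fish oil difference was 0.22 on chip A over 65 probe sets and 0.15 on chip B over 61, and relative to that the Apoe differences were 0.36 and 0.11.

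Apoa2 and Apoc1 were among the brightest probe sets of the liver and stayed within 0.32 (log2) of control in every diet. For Apoa2, a main protein of high density lipoprotein, x04119_f_at read 16032 and 13428 in the controls and 15353, 17937 and 15581 with fungal oil, fish oil and both oils. The second Apoa2 probe set, x62772_f_at, read 13073 and 11146 in the controls and 12706, 15039 and 13362 with the oils in that order. Fish oil gave the highest value of both probe sets, with log2 differences of 0.29 and 0.32, and the controls themselves lay 0.26 and 0.23 apart. Apoc1, read by Z22661_f_at, had 12731 and 10986 in the controls and 12029, 14008 and 12677 with the oils, again highest with fish oil (0.24, SE 0.17). With quantile normalization the fish oil differences were only 0.05 and 0.10 for Apoa2 and 0.05 for Apoc1.

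Apoh, the phospholipid binding plasma protein, stayed near control in every diet. Its bright probe set read 9667 and 9430 in the controls and 9229, 9932 and 10542 with fungal oil, fish oil and both oils. The dimmer y08224_s_at read 373 and 346 in the controls and 350, 411 and 373 with the oils. All 6 differences lay between -0.05 and 0.19 (log2).

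Pltp and Apoa1 were dim in liver, and their values carry larger errors. Pltp, read by u37226_s_at, had 86 and 92 in the controls, 47 with fungal oil, 56 with fish oil and 16 with both oils, the last just above the floor. All 3 oil RNAs were below both controls, by -0.92, -0.67 and -2.47 (log2, SE 0.35 each), with limma adjusted p of 0.588, 0.565 and 0.384. With both oils the difference was the same at 0.5 times the floor, and a floor of 2.5 times the usual one, above that reading of 16, gave -1.25. The Kupffer cell and macrophage markers, 10 of 11 measured, summed to 1956 and 1821 in the controls and to 1244, 1363 and 1421 with fungal oil, fish oil and both oils, with only Marco at or below the floor throughout. Their part in the Pltp values was not tested. Apoa1, the first protein of high density lipoprotein, was read on chip B at 107 and 97 in the controls and at 76, 62 and 64 with the oils, all below both controls, with differences of -0.42, -0.72 and -0.67 (SE 0.40 each) that did not pass. The other Apoa1 probe set, AA590605_at, read between -24 and -13 in the livers and was below the floor in every chip A array. The liver is known to make much Apoa1, and neither probe set was bright.

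**Figure D2:**
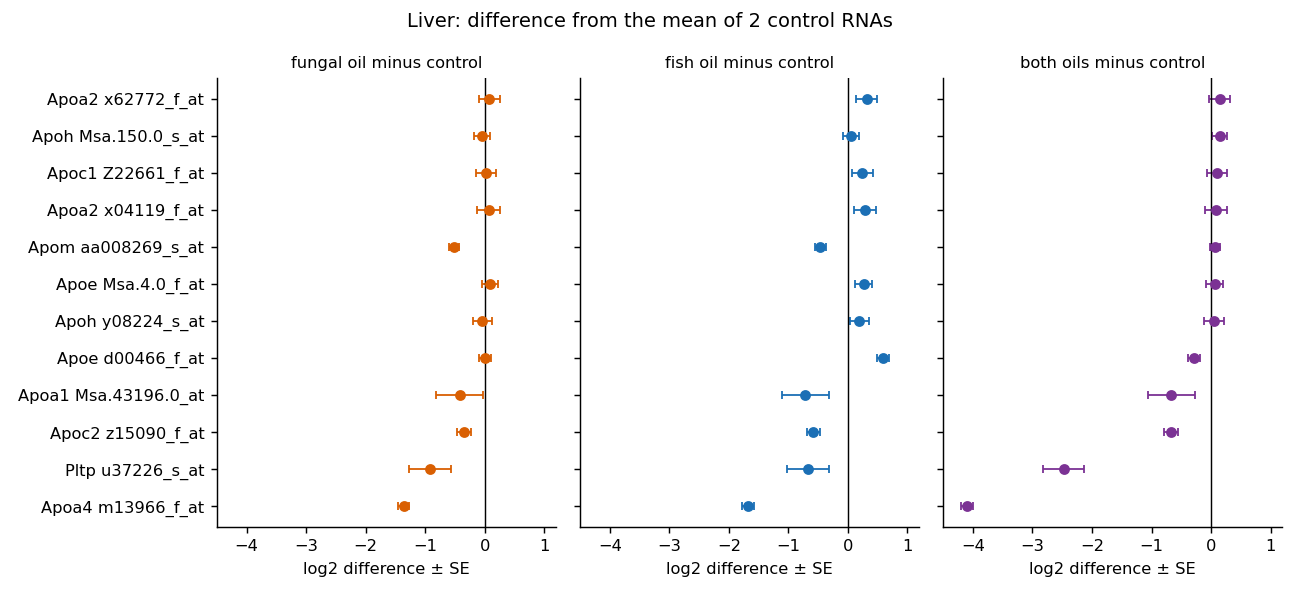
Difference from the mean of both liver controls (horizontal axes, log2 ± SE of the limma fit) for the 12 probe sets that passed the filter (rows), in 1 panel per oil diet. Apoa4 lay at -1.36, -1.68 and -4.10, and Apoa2, Apoc1 and Apoh stayed within 0.32 of 0.

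Counted against both controls, 4 of the 12 probe sets were below both in each of the 3 oil RNAs, against 12% of all 6531, and 1 was above both in each, against 12.6%. The 4 were Apoa4, Apoc2, Pltp and Apoa1, and the 1 above was Apoe on chip B. At least 1.5-fold below both controls in each oil RNA were 2, Apoa4 and Pltp, against 1.09%. The filter took the mean of all liver RNAs, controls included. Pltp, at percentile 55.4 of its chip, was near the cut, and its brighter controls raised its mean. Its place in these counts is thus a description and no support for a difference with diet. By diet, 2 of 12 were at least 1.5-fold below both controls with fungal oil (7.81% of all), 3 with fish oil (9.19%) and 4 with both oils (7.27%), and 0 were at least 1.5-fold above (4.36%, 5.13% and 6.46%). The median of the 12 was -0.04 with fungal oil, 0.13 with fish oil and 0.06 with both oils (log2), and over all probe sets it was -0.01, 0.01 and 0.05.

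With the 3 oil RNAs taken as a group against the controls, 0 of the 12 were called, against 0.0612% of all (4 of 6531, and 535 or 8.19% at an unadjusted p under 0.05). The differences were -2.38 for Apoa4 (SE 0.74, limma adjusted p = 0.435), -0.53 for Apoc2 (SE 0.13, adjusted p = 0.249) and -1.35 for Pltp (SE 0.58, adjusted p = 0.616). Apoa4 varied most among the oils, and without the RNA of both oils its difference was -1.52 with a limma adjusted p of 0.0322, so that it passed there. Over all alternatives that p ran from 0.0322 to 0.973. Apoc2 had the smaller difference and the smaller error.

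Fungal oil and fish oil were compared with each other at the levels fed, 1.1% and 1.9%, which differ. In that limma comparison 0 of 12 were called, against 0% of all (589 or 9.02% at an unadjusted p under 0.05). Apoe on chip A was lower with fungal oil than with fish oil by -0.58 (log2, SE 0.12, limma adjusted p = 0.524), and the chip B probe set had -0.17 (SE 0.16). The difference for Apoa4 was 0.31 (SE 0.11, adjusted p = 0.560).

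The design also allows both oils to be set against the sum of the single oils, and here Apom, Apoa4 and Apoe stood farthest from that sum relative to their errors. For Apom the single oils summed to -0.98 and both oils gave 0.06, a difference of 1.04 (log2, SE 0.14). The sum would have put the Apom intensity at 700.1, and 1444 was read. For Apoa4 the sum was -3.04 and both oils gave -4.10, a difference of -1.06 (SE 0.15), with 244 units from the sum and 117 read. Apoe on chip A had a sum of 0.59 against -0.29, a difference of -0.88 (SE 0.15), and its chip B probe set had -0.29 (SE 0.21). Pltp differed from the sum by -0.89, with a larger SE of 0.53. With quantile normalization the difference from the sum was 1.14 for Apom and -1.09 for Apoa4. For Apoe it was -0.6 on chip A and -0.1 on chip B. So Apom was higher, and Apoa4 and Apoe lower, than the sum, with the size for Apoe depending on the scaling. None passed, since the limma adjusted p was 0.529 for each of these 3 chip A probe sets, and 0 of 12 were called against 0% of all (605 or 9.26% at an unadjusted p under 0.05).

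**Figure D3:**
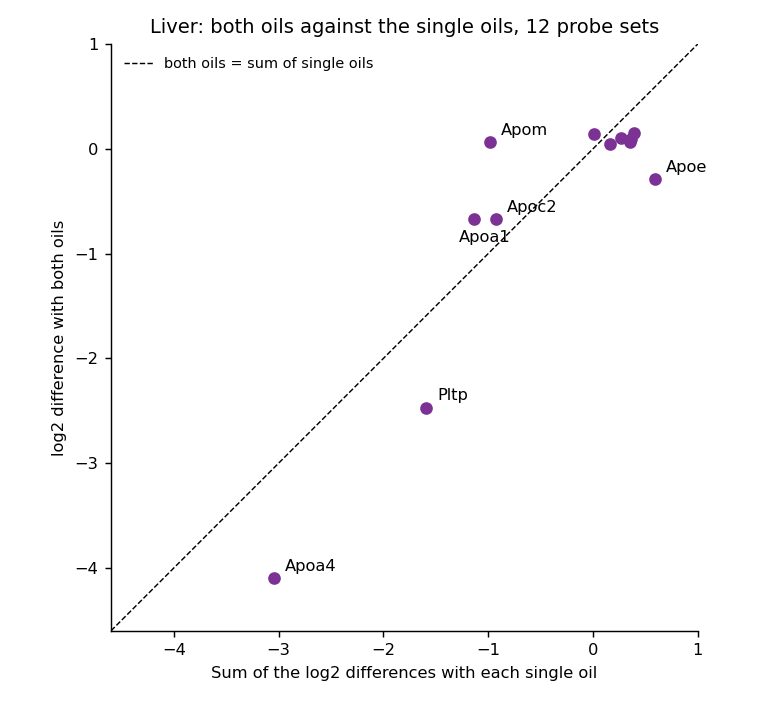
Liver difference with both oils (vertical axis, log2) against the sum of the differences with each single oil (horizontal axis, log2) for the 12 probe sets that passed the filter, with the line of equality dashed. Apom lies above the line (-0.98, 0.06), and Apoa4 (-3.04, -4.10) and the chip A probe set of Apoe (0.59, -0.29) lie below it.

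The genes whose liver values across the 5 RNAs were nearest to those of Apoa4, by the distance between log2 differences from the control mean, were Cd4, Ifi47 and Dgcr6, among 4076 probe sets. The distances were 1.52, 1.61 and 1.63. Cd4 read 135 and 139 in the controls and 47, 83 and 18 with fungal oil, fish oil and both oils. All 3 were far dimmer than Apoa4, and Ifi47, at -20 with both oils, was below the floor there.

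Other genes of lipoprotein metabolism were followed in 4 lists, and in liver 0 genes of any list were called in any oil comparison by limma, among all or the brightest probe sets. Among other apolipoproteins and proteins of high density lipoprotein, 14 of 20 were measured and 13 passed the filter. With both oils the bright ones farthest from control were Pon3 (0.93), Pon2 (0.61) and Hpx (-0.61, log2). They are a pair of lactonases and a haem carrier. Pon3 read 167 and 150 in the controls, 143 and 141 with the single oils and 302 with both. Among lipases, assembly proteins and their regulators, 9 of 24 were measured and passed, and the bright ones farthest from control with both oils were Angptl4 (1.62), Plin2 (-0.25) and Lcat (0.19). Angptl4, an inhibitor of lipoprotein lipase, read 75 and 133 in the controls, 191 with fungal oil, 184 with fish oil and 307 with both oils, so every oil RNA was above both controls, which themselves differed widely (SE 0.43, limma adjusted p = 0.477 with both oils). Lpl, the lipase that Apoc2 activates, was not among the bright genes and read 107 and 130 in the controls and 57, 76 and 62 with fungal oil, fish oil and both oils, all below both controls (differences -1.05, -0.63 and -0.93, SE 0.27 each, limma adjusted p of 0.524, 0.509 and 0.489). Mttp, which loads lipid onto Apob, had differences of 0.13, 0.38 and 0.15 (SE 0.19).

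Of the receptors, 12 of 18 were measured and 8 passed the filter. Cd36 (-0.52), the fatty acid translocase, Lrp1 (-0.39), a remnant receptor that binds Apoe, and Lsr (-0.34), a receptor for lipolysed particles, were the bright ones farthest from control with both oils. Cd36 read 280 and 213 in the controls, 223 with fungal oil, 591 with fish oil and 170 with both oils, and Lrp1 read 1056 and 1341 in the controls and 998, 886 and 910 with the oils, all below both. Of the transcription factors that act on these genes, 19 of 29 were measured and 15 passed. Foxa3 (-0.97), a hepatocyte forkhead factor, Nr0b2 (-0.62), a corepressor, and Nr1h4 (0.55), the bile acid receptor, were the bright ones farthest from control with both oils. Among the dimmer ones Rxrb (-1.89, SE 1.91), Esrra (-0.89), Rxra (0.85) and Foxa1 (-0.75) were farther than Nr0b2. Foxa3 read 355 and 466 in the controls, 501 with fungal oil, 454 with fish oil and 207 with both oils, so only the RNA of both oils lay below the controls. The medians of the 4 lists lay between -0.12 and 0.26 (log2) over the 3 oil diets.

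Between tissues, liver exceeded hippocampus for most of these genes. The tissue limma fit used all arrays with diet as a term, and a call needed an adjusted p under 0.05 and a 2-fold difference. Probe sets were tested that passed the filter in either tissue, which 13 members did, and 51.9% of the 7885 tested were called (20.2% higher and 31.7% lower in liver). Of the 13, 7 were kept only through the tissue in which they are bright. That filter favours a difference between tissues, so their calls are no support, and they are given by their values. The other 6 passed the filter in both tissues. Of these 5 were called higher and 1 lower in liver, against 13.4% and 24.3% of the 5178 probe sets that passed in both. That restriction was made after seeing the data. Adjusted p given below for single genes of this fit are over all 7885 unless another setting is named. Hippocampus values of 7 of the 15 were at or below the floor in every array. The arrays of the tissues also differed in the ratio of 3′ to 5′ control probe sets, which was 1.89 to 3.25 for Gapdh and 3.32 to 4.17 for actin on the 10 liver arrays, and 0.84 to 0.95 and 1.33 to 1.55 on the 6 hippocampus arrays that gave one. The part of RNA quality in the tissue differences was not tested. The labels of liver and hippocampus arrays also end in different suffixes, whose meaning is not given and which cannot be told apart from tissue.

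Apoh and Apoa2 were far higher in liver than in hippocampus. Apoh read 9229 to 10542 in liver with its bright probe set, against -62 to -47 in hippocampus. The liver was at least 655-fold higher by the means of log2 values. Apoa2 read 13428 to 17937 in liver and 105 to 151 in hippocampus with x04119_f_at, a limma difference of 6.90 (SE 0.14, adjusted p = 5.166e-08), and its other probe set was below the floor in hippocampus and at least 873-fold higher in liver. No liver value of Apoa2 or Apoh overlapped a hippocampus value.

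Apoc1 read 10986 to 14008 in liver and 59 to 153 in hippocampus, a difference of 7.05 (log2, SE 0.23), although hippocampus stayed above the floor in all 4 RNAs. Apoc2 read 2005 to 3233 in liver and 26 to 107 in hippocampus (difference 5.26, SE 0.33). Apom read 964 to 1444 in liver and -8 to 15 in hippocampus, which made the liver at least 81.4-fold higher. The differences of Apoc1 and Apoc2, which passed the filter in both tissues, had limma adjusted p of 4.311e-07 and 1.113e-05.

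Apoe differed least among the bright genes, and hippocampus was bright too. On chip A it read 5253 to 9632 in liver and 2980 to 3313 in hippocampus, and its chip B values were 9734 to 12074 and 4125 to 4838. The tissues did not overlap, and the limma differences were 1.22 (SE 0.13, adjusted p = 0.000319) and 1.27 (SE 0.05, adjusted p = 1.089e-06). With quantile normalization both were 0.16 and neither was called, so the direction held but the size depended on the scaling. Astrocyte markers, 5 of 7 measured, summed to 1545, 1303 and 1243 in the hippocampus RNAs of control, fungal oil and fish oil mice.

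Apoa1 read 62 to 107 in liver and 8 to 43 in hippocampus on chip B, without overlap, and was too dim in hippocampus to pass the filter there. Pltp ran the other way, with 16 to 92 in liver and 105 to 189 in hippocampus, so every hippocampus RNA exceeded every liver RNA. Its limma difference was -1.05 (SE 0.35, adjusted p = 0.0373), and it was not called without the fungal oil or the fish oil RNA of either tissue, where adjusted p was 0.131 to 0.146, nor with quantile normalization (0.109) or without the filter (0.126).

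The Apoa4 probe sets disagreed between tissues. The chip A probe set read 117 to 2034 in liver and -189 to -117 in hippocampus, so that liver was at least 49.9-fold higher. The chip B probe set read -319 to 42 in liver and 329 to 430 in hippocampus, with 4 of the 5 liver readings below the floor. They are on different chips but of the same RNAs, and which of them reads Apoa4 was not tested. The differences with diet given for Apoa4 in liver are those of the chip A probe set.

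**Figure D4:**
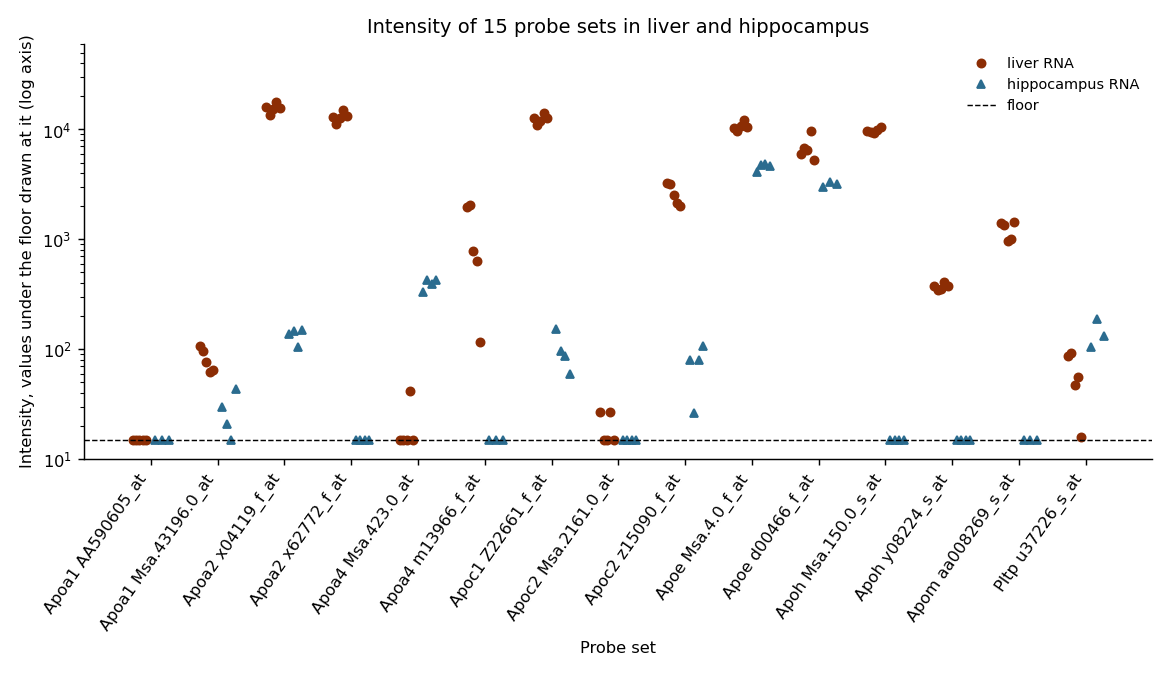
Intensity (vertical axis, log scale, values under the floor of 15 drawn at the floor) of the 15 probe sets (horizontal axis) in each liver RNA (circles) and each hippocampus RNA (triangles). Apoa2, Apoc1 and Apoh stand far higher in liver, Apoe is bright in both tissues, and the Apoa4 probe sets lie in opposite order.

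Genes of the pathway lists were compared between tissues where a probe set passed the filter in both, and a gene with several was read by the one with the highest mean over both tissues. The median liver difference of all 5178 such probe sets was -0.26 (log2), with 13.4% called higher and 24.3% lower. Of other apolipoproteins and proteins of high density lipoprotein 7 qualified and 5 were higher in liver, the haemoglobin carrier Hp (7.72), the retinol carrier Rbp4 (6.07), Lcat (3.42), Pon3 (2.07) and Clu (1.32), with a list median of 2.07. Of 6 lipases and assembly genes 4 were higher, P4hb (3.88), a subunit of the lipid loading complex, Lcat, the cholesterol exporter Abca1 (2.10) and Sar1b (1.37), while Lpl (-3.17) and Abcg1 (-1.66) were lower, and the median was 1.74. Of 3 receptors Scarb2 (1.87) was higher and none lower, with a median of 0.58. Of 7 transcription factors 5 were higher, Ppara (4.35), Foxa3 (2.84), Cebpb (2.42), Nr0b2 (1.90) and Foxa2 (1.43), with a median of 1.90.

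In hippocampus there was 1 RNA per diet, and a difference is described where it was at least 1.5-fold with both values above the floor. Above the floor in the control and with fungal oil were Apoe on both chips, Pltp and 1 probe set each of Apoa1, Apoa2, Apoa4, Apoc1 and Apoc2. With fish oil Apoa1 was not, and with both oils Pltp and Apoe of chip A were not measured. With fungal oil 2 of the member probe sets were lower and 1 higher by that measure, against 8.4% and 9.4% of all 8021 above the floor. With fish oil 1 was lower and 0 higher, against 7.97% and 9.31% of 7917, and with both oils, on chip B alone, 1 was lower and 0 higher, against 7.96% and 10.7% of 3720. The 4 RNAs on chip B also allow an additive limma fit of the oils, added after seeing the data, in which 0 of 5 members were called with fungal oil, fish oil or both oils, against 0% of 3267 probe sets each (3.49%, 2.75% and 3.34% at an unadjusted p under 0.05).

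Apoc1 was lower in each oil RNA. Its intensity in hippocampus was 153 in the control, 96 with fungal oil, 86 with fish oil and 59 with both oils. The control was the highest and both oils the lowest, with log2 differences of -0.67, -0.83 and -1.38. The additive fit gave -0.61, -0.77 and -1.37 (SE 0.32, 0.32 and 0.45), with limma adjusted p of 0.999, 0.998 and 1. Hepatocyte markers in the same RNAs summed to 333 in the control, 394 with fungal oil and 250 with fish oil, and the part of liver RNA or of cross-matching probes in such low values was not tested. Apoc2 read 79 in the control, 26 with fungal oil, 79 with fish oil and 107 with both oils. Only fungal oil was lower, by -1.60, and its reading was near the floor. At 2.5 times the floor, which is above that reading, the difference was -1.07.

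Pltp read 105 in the control hippocampus, 189 with fungal oil and 131 with fish oil. The oil RNAs were higher, by 0.85 and 0.32 (log2). Markers of meninges and connective tissue, all 5 listed, summed to 1370 in the control, 4798 with fungal oil and 2913 with fish oil, in the same order as Pltp, and of those Ptgds alone read 624, 3118 and 1843. Choroid plexus markers, 3 of 6 measured, summed to 449, 750 and 276. Their part in the Pltp values was not tested. Whether the oil difference was the same in both tissues was tested with limma in a fit of tissue, any oil and their interaction, added after seeing the data, and 0 of 13 members were called, against 0.0507% of 7885 probe sets (6.87% at an unadjusted p under 0.05). Liver minus hippocampus was -1.94 for Pltp (SE 0.93, limma adjusted p = 0.782) and 1.08 for Apoc1 (SE 0.32, limma adjusted p = 0.453).

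Apoe was within 0.23 (log2) of the control hippocampus in every diet. It read 2980 in the control, 3313 with fungal oil and 3204 with fish oil on chip A, and 4125, 4720, 4838 and 4651 on chip B in the order control, fungal oil, fish oil and both oils. Each oil value was above the control value on its chip, by 0.11 to 0.23. Apoa2 x04119_f_at read 138, 146, 105 and 151 in that order, with no common direction.

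**Figure D5:**
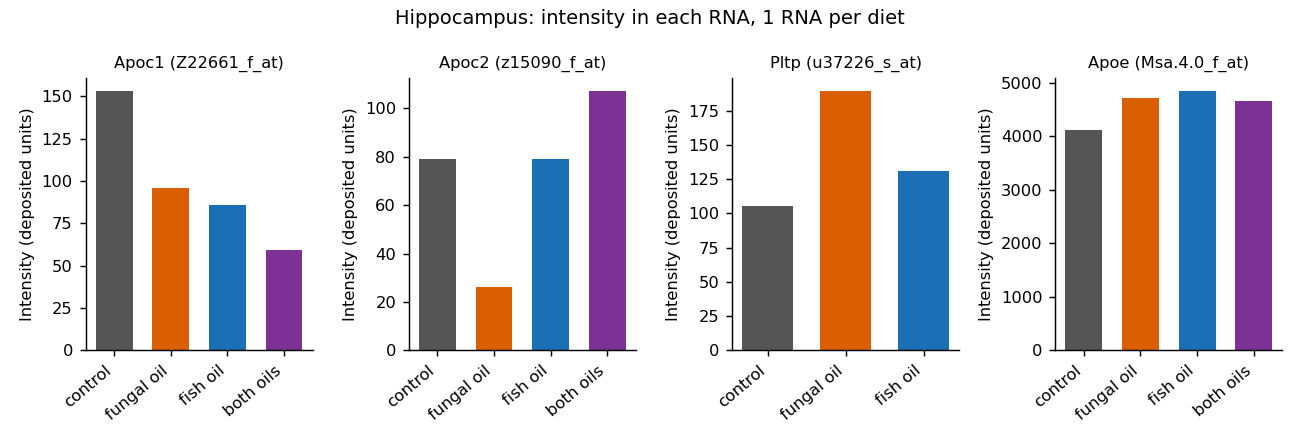
Intensity in deposited units (vertical axes, from 0) of 4 probe sets in each hippocampus RNA (bars, 1 RNA per diet, Pltp on chip A without the diet of both oils). Apoc1 went from 153 in the control to 59 with both oils, and Pltp was 189 with fungal oil against 105 in the control.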

How the data were processed

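RNA of liver and hippocampus was hybridised to a pair of Affymetrix mouse array types, chip A and chip B. The deposited intensities, 1 for each probe set of an array, are whole numbers and some are negative. How the authors made and scaled these intensities is not given in the sources used here. Their trimmed means (2% off each side) were nearly equal, so they were used as deposited, and for the tissue comparison scaled to 1 trimmed mean.

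The 61 control probe sets of each chip did not enter. A floor of 15 units, 0.1 of the trimmed mean, replaced lower values before log2. Probe sets at or above the median of chip and tissue were kept. limma 3.58.1 in R 4.3.3 (lmFit, eBayes with intensity trend) was fitted per chip, with p-values of both chips adjusted together (Benjamini-Hochberg). Only the control liver is replicated, so the fit of 4 diets has 1 residual degree of freedom among samples and prior degrees of freedom of 2.17 and 2.1. The fit takes the spread of the controls for the oil RNAs too. The fits were also run on simulated data in which every oil RNA varied as the controls do, so that assumption was not tested.

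Every probe set whose single symbol is one of the 10 genes was described. From each pathway list the genes called in a comparison were named (between tissues, only those kept in both), and otherwise the 3 bright genes farthest from control with both oils. Lpl, Mttp and the dimmer transcription factors were named outside that rule. Other dim genes, such as Saa3 (0.859) and Scarb1 (0.535, log2), were also farther with both oils than a named bright gene of their list. Genes and lists were chosen with earlier results of these data known. Precision is limited by the number of arrays and by signal over background. Alternatives were other normalization, floors, filters and fits, leaving out RNAs, and means over probe sets. Sums of markers count negative intensities as 0.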

Additional observations from a re-analysis of the deposited data

Results flagged for a closer look

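Pltp differed in opposite directions between the tissues. Every oil liver RNA was below both liver controls, with a mean log2 difference of -1.35 for any oil, and both oil hippocampus RNAs on chip A were above the control, with a mean of 0.58. In a limma fit of tissue, any oil and their interaction, added after seeing the data, the oil difference in liver minus that in hippocampus was -1.94 (SE 0.93, adjusted p = 0.782), which did not pass. The probe set was dim in both tissues.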

How the results depend on the processing

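In the tissue comparison 13 member probe sets were called, against 51.9% of all 7885. Of the 13, 7 were kept only through the tissue in which they are bright, a filter that favours a difference. The count was 12 to 13 when each RNA was left out in turn and 10 with quantile normalization. It was 12 at 2.5 times the floor or without the filter and 11 among the brightest. Among probe sets kept in both tissues it was 6, where only 6 members were tested. The liver diet counts of 0 changed only in the settings given next. Among the brightest probe sets 1, Apoa4, was called with each of fungal oil, fish oil and both oils. An additive fit of the oils called 1 with both oils (Apoa4, -3.95, limma adjusted p = 0.0151). Without a filter on dim probe sets 2 were called with fish oil, both for Apoa4 and in opposite directions (-1.68 and 1.49), 1 with both oils (Apoa4 m13966_f_at), 1 between fungal oil and fish oil and 1 for the sum of the oils. Those last 2 were the chip B probe set of Apoa4, whose control values were both at the floor and so had no spread. The share of all probe sets called was not counted for the additive liver fit or the fit without a filter. The member counts of those fits therefore have no background to be set against. For any oil 0 to 1 were called when each liver RNA was left out. In hippocampus 2 instead of 1 were at least 1.5-fold from control with fish oil at 0.5 times the floor, and the additive fit on chip B called 0 with fungal oil, fish oil or both oils. Leaving out a control leaves the fit of 4 diets no residual degrees of freedom, so it gives values without a test.

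Signs that turned were mostly of small log2 differences. With quantile normalization fungal oil gave -0.02 for both Apoe probe sets and Apoc1, -0.01 for Apoa2 x62772_f_at and 0.06 for Apoh y08224_s_at. That setting gave -0.02 for the bright Apoh probe set with fish oil, -0.01 for Apoe of chip B with both oils, -0.02 for Apoe d00466_f_at with any oil and 0.02 for the Apoc1 sum of oils. The additive fit gave, with fungal oil, -0.37 and -0.04 for Apoe, -0.05 and -0.03 for Apoa2, -0.05 for Apoc1 and 0.01 for the bright Apoh probe set, and -0.08 for Apom with both oils. Leaving out 1 control gave, with fungal oil, values for Apoe d00466_f_at of -0.08 to 0.09, Apoh y08224_s_at of -0.09 to 0.02, Apoa2 of -0.06 to 0.19 (x04119_f_at) and -0.04 to 0.19 (x62772_f_at) and Apoc1 of -0.08 to 0.13, and with both oils -0.04 to 0.21 for Apoa2 x04119_f_at and -0.01 to 0.21 for Apoc1. For any oil, Apoe d00466_f_at ran from -0.14 (without the fish oil RNA) to 0.30 (without that of both oils). The mean over probe sets gave -0.11 for Apoe with both oils, -0.59 for Apoa4 and -0.31 for Apoc2 between fungal oil and fish oil, and -0.09 for Apoc2 and 0.02 for Apoh in the sum of oils. Relative to the brightest 1% the values were -0.02 for Apoe d00466_f_at and Apoc1 with fungal oil, -0.10 for the bright Apoh probe set with fish oil, and -0.02 for Apoe of chip B and -0.03 for Apoh y08224_s_at with both oils. At 2.5 times the floor Pltp gave 0.34 in the sum of oils. The cause was not tested.

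The settings that leave out an oil RNA or any RNA of the tissue fit, the brightest 1% as a reference, the filter in both tissues and the additive fit in hippocampus were chosen after seeing the data. No paired analysis was possible because the shared control numbers name the same RNAs on both chips and each oil diet has 1 RNA. Signal over background limits Pltp, both Apoa1 probe sets and 1 probe set each of Apoa4 and Apoc2.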
